A study of Mus musculus with 18 samples.

Results

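The ribonuclease A family genes examined in whole mouse lung were Rnase2a, Ear1, Ear2, Ang and Rnase4, taken with every probe set that the array annotation assigns to 1 of them alone. Of these 5 genes, 3 had such a probe set, giving 5 member probe sets among 45037 tested and 18193 annotated genes. Rnase2a and Rnase4 had 1 probe set each and Ang had 3. Ear1 and Ear2 had none, so their levels were not analysed here.

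Ribonuclease A family proteins are small secreted enzymes that cut RNA and are held together by conserved disulfide bonds. In mice the eosinophil-associated branch, to which Rnase2a (also named Ear11), Ear1 and Ear2 belong, has expanded into many near-identical genes, made by eosinophils and also by macrophages. Ang encodes angiogenin, which promotes blood vessel growth and cleaves transfer RNA under stress, and Rnase4 encodes a secreted ribonuclease that prefers to cut after uridine. Ang and Rnase4 share promoters and a first exon at 1 locus, and both are made strongly in liver.

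The study measured RNA from whole lungs of male mice aged 16 weeks on 18 one-colour arrays, 3 in each of 6 groups. All mice, of strain A/J or C57BL/6, had been sensitised by 3 weekly intraperitoneal injections of 100 µg ovalbumin in alum, so the PBS mice were sensitised too. The resiquimod mice received 100 µg of resiquimod (S-28463, R-848, a Toll-like receptor 7 agonist) intraperitoneally on each of 3 days, beginning 1 day before the first challenge, and then inhaled ovalbumin. The ovalbumin mice inhaled a 1% ovalbumin aerosol for 30 min on each of 3 days, starting 7 days after the last sensitisation, and the PBS mice inhaled PBS. The labels list neither a resiquimod group challenged with PBS nor a vehicle injection for the other groups. Values are log2 expression values, and a difference was called when its adjusted p was under 0.05 in limma across all 45037 probe sets.

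Replicate arrays correlated at 0.987 to 0.997 within groups, and Sftpc, the surfactant protein C gene of alveolar type II cells, was high on every array. Transcripts of squamous epithelium stood out on 8 arrays, spread over all 6 groups. Leaving these out keeps 10 arrays, with 1 each in A/J ovalbumin and C57BL/6 PBS. A call lost in that fit cannot be told apart from the loss of arrays. Transcripts of liver stood out on 2 arrays, replicate 1 of A/J ovalbumin and replicate 3 of A/J resiquimod, where the albumin gene Alb measured 10.06 and 11.33. For the members, values without these arrays are given beside the calls they changed.

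Promoter sequences are shown because Ang and Rnase4 are transcribed from a shared one, and because Ear1 and Rnase2a show how alike the eosinophil-associated genes are. They are RefSeq windows of 250 bases before to 50 bases after the annotated start, build GRCm38.p6, written 5′ to 3′ on the gene's strand, with each CCAAT match in capitals. The Rnase2a window is chr14:51256063-51256362 on the minus strand. The Ear1 window is chr14:43819590-43819889 on the minus strand. The window shared by Ang and Rnase4 is chr14:51090827-51091126 on the plus strand.
Rnase2a: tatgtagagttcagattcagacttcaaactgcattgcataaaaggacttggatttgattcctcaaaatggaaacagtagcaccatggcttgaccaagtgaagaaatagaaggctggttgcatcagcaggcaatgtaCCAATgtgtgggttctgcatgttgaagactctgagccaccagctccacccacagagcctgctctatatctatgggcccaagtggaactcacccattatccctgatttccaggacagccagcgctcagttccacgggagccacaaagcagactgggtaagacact
Ear1: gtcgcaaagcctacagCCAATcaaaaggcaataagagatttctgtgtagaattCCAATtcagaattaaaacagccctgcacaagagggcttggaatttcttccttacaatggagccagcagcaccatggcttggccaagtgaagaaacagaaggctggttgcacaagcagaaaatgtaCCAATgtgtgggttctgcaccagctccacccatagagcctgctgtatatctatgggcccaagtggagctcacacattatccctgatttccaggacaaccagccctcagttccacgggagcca
Ang and Rnase4: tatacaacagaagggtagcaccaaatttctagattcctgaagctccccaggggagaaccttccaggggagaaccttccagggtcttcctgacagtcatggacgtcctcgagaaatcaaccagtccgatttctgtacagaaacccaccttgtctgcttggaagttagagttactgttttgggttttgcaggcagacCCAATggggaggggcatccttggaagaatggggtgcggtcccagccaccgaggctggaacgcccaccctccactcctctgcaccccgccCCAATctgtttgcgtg

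The Ang window and the first Rnase4 window were identical at 300 of 300 bases, and RefSeq also lists a second Rnase4 start. The Ear1 and Ear2 windows matched at 294 of 297 aligned bases (99.0%), and Ear1 and Rnase2a matched at 226 of 258 (87.6%). Bases opposite a gap are not counted, which raises these shares for any pair. By the same measure Ear1 and the second Rnase4 window matched at 174 of 232 (75.0%). CCAAT lay at -114 from the start in Rnase2a, at -234, -197 and -72 in Ear1, and at -55 and 35 in the window shared by Ang and Rnase4. Both strands were searched, and 37.4% of 32851 promoter windows of the same length hold CCAAT on either strand. Also searched were TATAAA (in 13.6% of those windows), AGATAA (11.2%), TTCNNNGAA (8.30%), the same STAT half-sites 1 base further apart (6.95%) and the interferon-stimulated response element core (3.44%), whose matches may overlap. None of these occurred in the member windows. The build represents C57BL/6, and A/J sequence was not analysed here.

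Rnase2a had the largest changes with treatment of all members. It was high in the lungs of all ovalbumin mice and near its PBS level in the lungs of resiquimod mice, in both strains. In A/J lungs Rnase2a measured 5.99, 4.62 and 5.46 after resiquimod, 10.39, 9.99 and 10.31 after ovalbumin, and 4.96, 4.40 and 5.98 after PBS. In C57BL/6 lungs it measured 4.22, 4.00 and 3.82 after resiquimod, 7.25, 8.45 and 7.72 after ovalbumin, and 3.56, 4.08 and 4.25 after PBS. The ovalbumin arrays did not overlap either other group in either strain, whereas resiquimod and PBS arrays overlapped.

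Ovalbumin raised Rnase2a over PBS by 5.12 ± 0.38 in A/J (34.8-fold; SE; adjusted p = 4.36e-07, limma) and by 3.84 ± 0.38 in C57BL/6 (14.4-fold; adjusted p = 1.9e-05, limma). Resiquimod lowered it relative to ovalbumin, with a change of -4.87 ± 0.38 in A/J (29.3-fold lower; adjusted p = 4.71e-07, limma) and -3.79 ± 0.38 in C57BL/6 (13.9-fold lower; adjusted p = 7.68e-06, limma). These are differences on the log2 scale of 3 arrays against 3, and both comparisons of a strain share its ovalbumin arrays. Because the array compresses low values, and the 25th percentile of all values is 3.33, folds against the low C57BL/6 groups may be understated. Against PBS, the resiquimod groups differed by 0.25 ± 0.38 in A/J and 0.05 ± 0.38 in C57BL/6, neither called (adjusted p = 0.790 and 0.959, limma).

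Of the member probe sets, 3 were called for ovalbumin against PBS in A/J, beside 3.15% of all probe sets, and 1 in C57BL/6, beside 1.06%. For resiquimod against ovalbumin 1 was called in each strain, beside 7.12% in A/J and 7.82% in C57BL/6. In all 4 comparisons Rnase2a was among those called. Without the 8 arrays that carry squamous epithelium transcripts, Rnase2a changed by 4.80 and 4.00 for ovalbumin and by -4.95 and -4.06 for resiquimod in A/J and C57BL/6. That fit keeps 1 array each of A/J ovalbumin and C57BL/6 PBS.

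**Figure D1:**
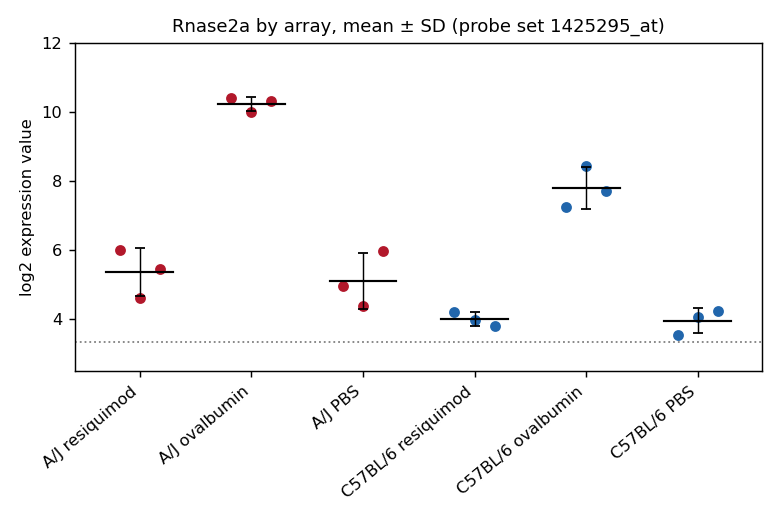
Rnase2a log2 expression value on each of 18 arrays (points), with the mean (bar) and SD (whisker) of the 3 arrays of each group; the dotted line is the 25th percentile of all values, 3.33. The 3 A/J ovalbumin arrays lie between 9.99 and 10.39, above every other array.

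Rnase2a was higher in A/J than in C57BL/6 after ovalbumin, by 2.43 ± 0.38 (5.37-fold; adjusted p = 0.000335, limma), and after resiquimod, by 1.35 ± 0.38 (adjusted p = 0.0229, limma). After PBS the difference was 1.15 ± 0.38, not called (adjusted p = 0.0753, limma), although the strains' arrays did not overlap. In order of group mean, A/J ovalbumin came first, then C57BL/6 ovalbumin, A/J resiquimod, A/J PBS, C57BL/6 resiquimod and C57BL/6 PBS. Neighbours overlapped only between resiquimod and PBS within a strain. The strain difference in the ovalbumin effect was 1.28 ± 0.53 (adjusted p = 0.868, limma) and that in the resiquimod effect was -1.08 ± 0.53 (adjusted p = 0.406, limma), so neither interaction was called. The strain call after resiquimod was lost in 4 of 18 fits that left out 1 array (A/J resiquimod replicates 1 and 3, C57BL/6 resiquimod replicates 2 and 3), with adjusted p up to 0.108 in limma, and without the 2 liver-transcript arrays (1.29, adjusted p = 0.0833, limma). It was also lost with a trended robust prior (adjusted p = 0.0573, limma). Leaving out A/J PBS replicate 2 or A/J resiquimod replicate 2 brought the difference after PBS past the threshold (adjusted p = 0.0249 at the lowest, limma). Without the squamous arrays, with 1 A/J ovalbumin array left, the strain differences of Rnase2a after ovalbumin and resiquimod were 1.91 and 1.02, no longer called.

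Markers of several cell types changed in the same comparisons. In A/J, 3 of 8 eosinophil genes rose after ovalbumin: Prg2, a granule protein gene, by 1.14, Epx, the eosinophil peroxidase gene, by 0.42, and the chemokine receptor gene Ccr3 by 0.40. In C57BL/6 none of the 8 was called. The summed eosinophil marker level (linear scale) ranged from 119 to 187 after resiquimod, 291 to 475 after ovalbumin and 196 to 279 after PBS in A/J. In C57BL/6 it ranged from 168 to 217 after resiquimod, 200.5 to 232 after ovalbumin and 178 to 209 after PBS, and the groups overlapped. Over all arrays Epx lay at 2.80 to 3.63 and Prg3 at 3.01 to 3.28, near the 25th percentile of all values (3.33). Siglecf, at 5.30 to 6.94, weighed more in the sum than Epx or Prg3. In A/J it measured 6.42, 6.80 and 6.94 after ovalbumin against 6.75, 6.68 and 6.62 after PBS. The higher A/J sum after ovalbumin therefore lay mostly in other genes of the list, and which cells made their RNA was not tested. In C57BL/6 Siglecf measured 5.61 to 5.92 after ovalbumin against 6.23 to 6.44 after PBS. The uncalled changes in C57BL/6 therefore do not show that eosinophil RNA was unchanged. Against ovalbumin, resiquimod lowered 5 of 8 in A/J, among them Alox15, a lipoxygenase gene, with a change of -2.53, and Prg2, with -1.10. In C57BL/6 it lowered 2, Alox15 and Ccr3, and raised Siglecf by 0.71.

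In the list for alternatively activated macrophages, 9 of 10 genes rose after ovalbumin in each strain. Examples were Chil4, a chitinase-like protein gene, by 5.86 in A/J and 5.79 in C57BL/6, and the lectin gene Cd209e by 3.58 in A/J and 2.06 in C57BL/6. With resiquimod against ovalbumin, 8 were lower in A/J and 5 in C57BL/6. Retnla and Chil3 weighed most in the summed level of this list, at 13.21 and 12.28 on A/J ovalbumin replicate 1. That level ranged from 8849 to 9854 after resiquimod, 17387 to 18151 after ovalbumin and 2965 to 3501 after PBS in A/J. In C57BL/6 it ranged from 8673 to 11151 after resiquimod, 14689 to 17521 after ovalbumin and 4683 to 4753 after PBS. After resiquimod the summed level lay above PBS in both strains. Gene by gene, resiquimod against PBS gave 3 of 10 higher and 1 lower in A/J, and 4 higher and 1 lower in C57BL/6. In C57BL/6 the mean log2 values of the list overlapped (6.48 to 6.87 after resiquimod, 6.39 to 6.53 after PBS). Of 10 genes in a list for alveolar macrophages, which also holds Chil3, 1 rose after ovalbumin in A/J and 2 in C57BL/6. Which cells made the RNA of either list was not tested.

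Of 9 airway secretory genes, 4 rose after ovalbumin in each strain, led by Clca1, a gene of mucus-producing cells, by 5.85 in A/J and 6.14 in C57BL/6, and the mucin gene Muc5ac by 2.81 and 2.89 in the same order, while 2 fell in A/J and 1 in C57BL/6. With resiquimod against ovalbumin, 4 secretory genes were lower in A/J and 5 in C57BL/6. Cytotoxic lymphocyte genes moved the other way, with 6 of 6 higher in each strain for resiquimod against ovalbumin, as were 3 of 7 neutrophil genes in A/J and 6 of 7 in C57BL/6. The summed cytotoxic level ranged from 1750 to 2336 after resiquimod, 154 to 169 after ovalbumin and 179 to 223 after PBS in A/J. The part of any of these cells in the Rnase2a values was not tested, and in whole lung fewer cells of a type cannot be told apart from less RNA per cell.

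**Figure D2:**
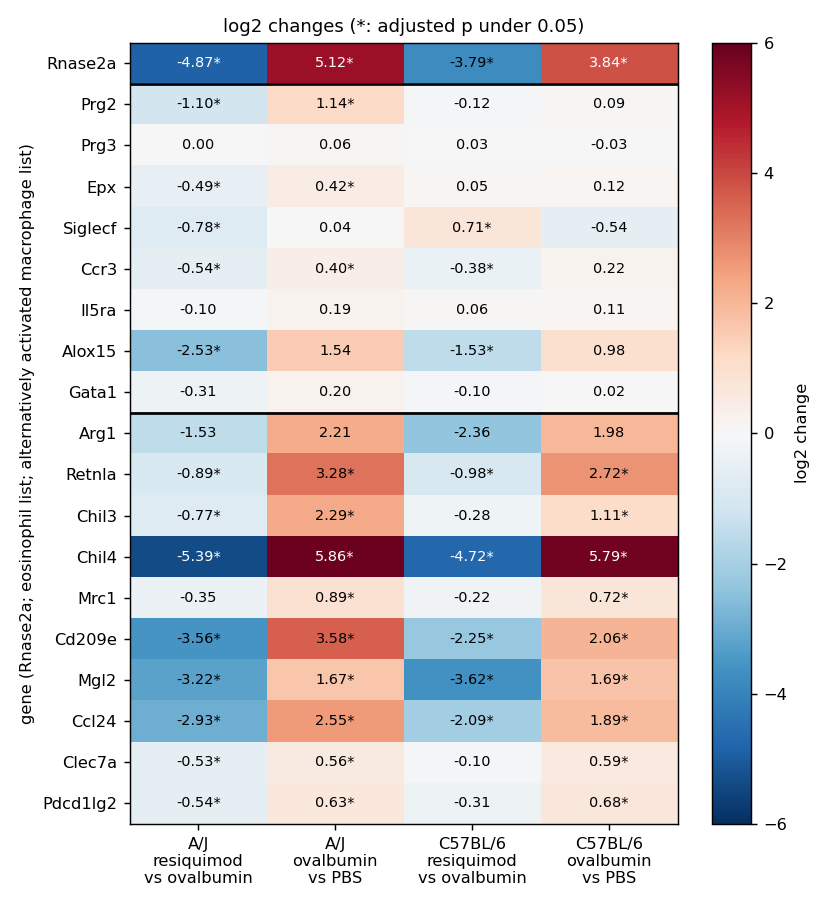
log2 change of Rnase2a, of 8 eosinophil genes and of 10 alternatively activated macrophage genes (rows) in 4 comparisons (columns), coloured by size, with an asterisk for adjusted p under 0.05 in limma. After ovalbumin Rnase2a changes by 5.12 in A/J and 3.84 in C57BL/6, beside 1.14 and 0.09 for Prg2 and 5.86 and 5.79 for Chil4 in the same order.

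Likeness was ranked by Pearson correlation over the 18 arrays among 16301 genes with a single-gene probe set and a RefSeq entry. Members and clone-type names were left out, and weak probe sets were not. The genes most like Rnase2a were Ccl11 (0.968), Slc5a1 (0.963), Capn9 (0.963), Slc26a4 (0.956) and Cd209e (0.954). Ccl11 encodes eotaxin, which draws eosinophils, and Slc26a4 encodes pendrin, an anion exchanger. The arrays share their treatments, so these coefficients are a description.

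Ang showed a strain difference whose size depended on the probe set. Probe set 1438936_s_at measured 4.63, 4.10 and 3.26 after resiquimod, 3.36, 3.77 and 3.62 after ovalbumin, and 3.90, 3.57 and 3.63 after PBS in A/J lungs. In C57BL/6 lungs it measured 9.18, 9.23 and 9.20 after resiquimod, 9.33, 9.39 and 9.49 after ovalbumin, and 9.52, 9.62 and 9.61 after PBS. The A/J values lay below the median probe set of their arrays, and no A/J array came within 4 log2 units of any C57BL/6 array.

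Probe set 1438937_x_at gave the same split. In A/J it measured 4.98, 3.62 and 5.34 after resiquimod, 3.67, 3.53 and 4.37 after ovalbumin, and 4.00, 4.37 and 3.98 after PBS. In C57BL/6 it measured 8.05, 7.97 and 7.90 after resiquimod, 8.09, 8.17 and 8.43 after ovalbumin, and 8.18, 8.29 and 8.21 after PBS. The A/J resiquimod values were the most scattered (SD 0.91). Leaving out A/J resiquimod replicate 2 gave a called change of 1.04 against PBS (adjusted p = 0.00378, limma), where all arrays gave 0.53 ± 0.31. For 1438936_s_at, leaving out replicate 3 did the same (0.66, adjusted p = 0.00788, limma), where all arrays gave 0.29 ± 0.22. Of these A/J resiquimod values, 1438937_x_at on replicate 3 reached percentile 56.6 of its array, and 1438936_s_at stayed at or below percentile 48.1.

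The third probe set, 1450717_at, differed less between the strains. In A/J it measured 5.68, 5.63 and 6.22 after resiquimod, 5.73, 5.53 and 5.65 after ovalbumin, and 6.10, 6.11 and 6.05 after PBS. In C57BL/6 it measured 6.44, 6.34 and 6.32 after resiquimod, 6.56, 6.61 and 6.56 after ovalbumin, and 6.61, 6.68 and 6.81 after PBS. The strains did not overlap, but they were less than 1 log2 unit apart on average in each treatment.

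As a rank among the probe sets of an array, 1438936_s_at lay at percentiles 23.2 to 48.1 in A/J (median 32.0) and 94.8 to 96.5 in C57BL/6, and 1438937_x_at at 29.8 to 56.6 in A/J and 86.4 to 90.6 in C57BL/6. 1450717_at lay at 59.0 to 66.9 in A/J and 68.0 to 74.3 in C57BL/6. The first pair read low in A/J and high in C57BL/6, so their A/J minus C57BL/6 differences are differences of probe set signal. The array maker's suffix _s marks probes shared by several transcripts and _x marks probes that may bind others.

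**Figure D3:**
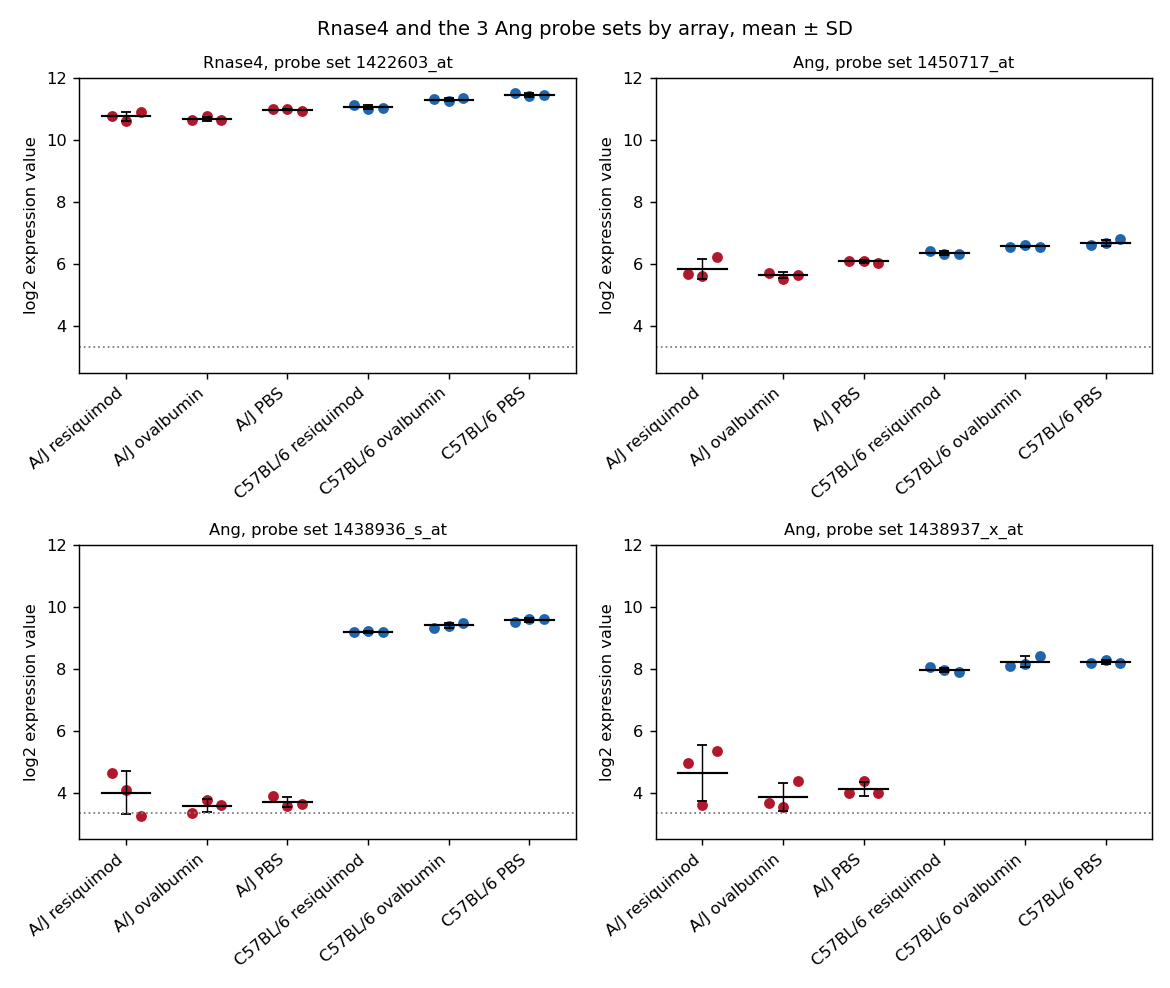
log2 expression values of Rnase4 and the 3 Ang probe sets on each array (points), with the mean (bar) and SD (whisker) of each group of 3 and the 25th percentile of all values (dotted line). Ang 1438936_s_at lies at 3.26 to 4.63 in A/J against 9.18 to 9.62 in C57BL/6, whereas Ang 1450717_at lies at 5.53 to 6.22 against 6.32 to 6.81.

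The A/J minus C57BL/6 difference of 1438936_s_at was -5.21 after resiquimod, -5.82 after ovalbumin and -5.88 after PBS (SE 0.22 each). For 1438937_x_at it was -3.33, -4.38 and -4.11 in the same order (SE 0.31 each), and no fold is given for either, since how far their A/J signal exceeds background is unknown. For 1450717_at it was -0.52, -0.94 and -0.61 (SE 0.11 each; 1.44-, 1.91- and 1.52-fold lower). All 9 were called by limma, with adjusted p of 0.00449 at most, and the strain differences were known when the genes were chosen.

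The probe sets disagreed on the size of the strain difference. The A/J minus C57BL/6 difference of 1438936_s_at exceeded that of 1450717_at by -4.95, the value in every A/J array lying below every C57BL/6 array. For 1438937_x_at minus 1450717_at the corresponding value was -3.25, and for 1438936_s_at minus 1438937_x_at it was -1.70. These are descriptions with no test, since this disagreement was known when the genes were chosen.

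Among 9010 genes with at least 2 single-gene probe sets, 262 (2.91%) had strain differences spanning at least 1 log2 unit between probe sets, the median span was 0.126, and 21 spanned at least 3. Ang spanned 4.95, and 6 genes including it spanned at least that much. This rank is a description too, since Ang was chosen with the disagreement of its probe sets known. Whether the A/J sequence under the probes differs was not tested, since no probe sequence was used here.

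Rnase4 was among the strongest signals on every array, at percentiles 98.5 to 99.0 in A/J and 99.0 to 99.4 in C57BL/6. In A/J it measured 10.78, 10.63 and 10.91 after resiquimod, 10.65, 10.78 and 10.67 after ovalbumin, and 11.01, 11.00 and 10.96 after PBS. In C57BL/6 it measured 11.15, 11.02 and 11.06 after resiquimod, 11.33, 11.26 and 11.36 after ovalbumin, and 11.53, 11.42 and 11.45 after PBS. Every A/J array was below every C57BL/6 array, by a margin smaller than for any Ang probe set.

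The A/J minus C57BL/6 difference of Rnase4 was -0.30 ± 0.07 after resiquimod, -0.62 ± 0.07 after ovalbumin and -0.48 ± 0.07 after PBS, all called (adjusted p = 0.00867, 1.88e-05 and 0.000249, limma). They correspond to levels 1.23-, 1.53- and 1.39-fold lower in A/J. Without A/J resiquimod replicate 2 the call after resiquimod was lost (adjusted p = 0.0507, limma), as it was with only the groups compared in the fit (adjusted p = 0.0848, limma). Without the squamous arrays the Rnase4 strain differences were -0.33 after resiquimod, -0.53 after ovalbumin and -0.44 after PBS, none called in that smaller fit. Those of Ang 1450717_at after resiquimod (-0.45) and PBS (-0.60) were not called there either. In the same fit and order, Ang 1438936_s_at differed by -5.51, -5.67 and -6.01, and 1438937_x_at by -3.50, -4.77 and -4.11.

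The strain comparisons called 4 of the 5 member probe sets after PBS, beside 8.54% of all probe sets. They called 5 of 5 after ovalbumin, beside 8.85%, and 5 of 5 after resiquimod, beside 14.0%. These counts are no result about the family, since the strain differences were known when the genes were chosen and 3 of the 5 probe sets are Ang. Among those called, Rnase2a was higher in A/J and the other probe sets were lower. Neither interaction called a member, beside 0.0466% of all probe sets for the ovalbumin effect and 0.839% for the resiquimod effect.

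**Figure D4:**
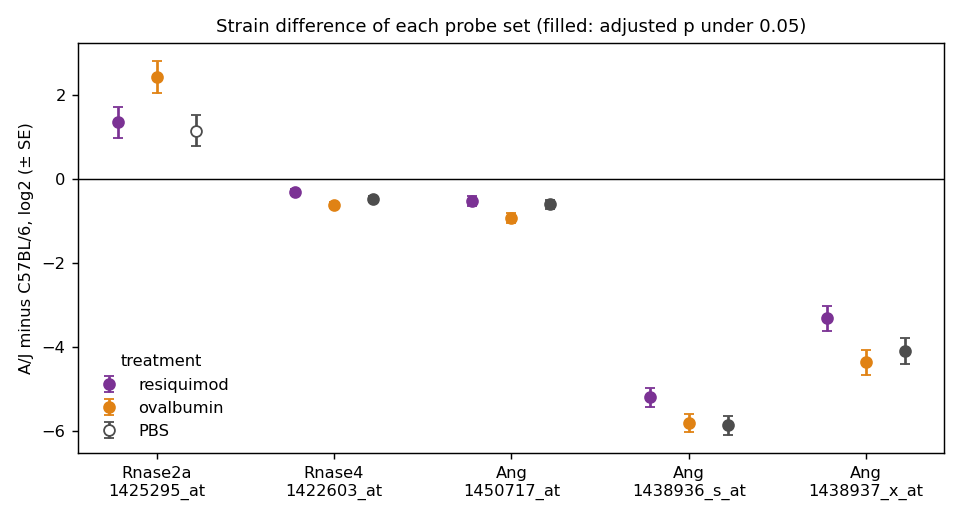
A/J minus C57BL/6 difference in log2 expression value (point) with its SE (whisker) for each member probe set after resiquimod, ovalbumin and PBS; filled points have adjusted p under 0.05 in limma. Rnase2a lies above 0 and the 4 Rnase4 and Ang probe sets below it, 1438936_s_at the furthest, at -5.21 to -5.88.

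Treatment changed Rnase4 and Ang little. In A/J, ovalbumin lowered Rnase4 relative to PBS, with a change of -0.29 ± 0.07 (1.22-fold lower; adjusted p = 0.0394, limma) and Ang 1450717_at, with a change of -0.45 ± 0.11 (1.37-fold lower; adjusted p = 0.0420, limma). In C57BL/6 the same changes were -0.15 ± 0.07 and -0.12 ± 0.11, not called, and the strain differences in the ovalbumin effect were not called either (-0.14 ± 0.10 and -0.33 ± 0.16). In C57BL/6, resiquimod mice had less Rnase4 than PBS mice, with a change of -0.39 ± 0.07 (1.31-fold lower; adjusted p = 0.0015, limma). For resiquimod against PBS, 1 of 5 member probe sets was called in C57BL/6, beside 12.4%, and none in A/J, beside 8.07%.

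The A/J calls depended on single arrays, whereas the C57BL/6 resiquimod call of Rnase4 was kept in all 18 fits leaving out 1 array (adjusted p up to 0.0106, limma). The A/J ovalbumin call of Rnase4 was lost in 7 of 18 fits leaving out 1 array (adjusted p up to 0.139 in limma), namely each A/J PBS array, A/J ovalbumin replicates 1 and 3, C57BL/6 PBS replicate 3 and C57BL/6 resiquimod replicate 3. That of Ang 1450717_at was lost in 14 of 18, all but those without C57BL/6 PBS replicate 3 or an A/J resiquimod array, with adjusted p up to 0.130. Without the squamous arrays, which leaves 1 array each in A/J ovalbumin and C57BL/6 PBS, they were -0.21 and -0.55, neither called. The C57BL/6 resiquimod change of Rnase4 against PBS was then -0.31, not called. Without the 2 liver-transcript arrays the Rnase4 change was -0.26 (adjusted p = 0.0967, limma) and the Ang 1450717_at change was -0.50 (adjusted p = 0.00194, limma).

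Hepatocytes express both genes. A/J resiquimod replicate 3, with the highest Alb, had the highest Rnase4 (10.91) and Ang 1450717_at (6.22) of its group. On that array Ang 1438937_x_at was the highest of the group too (5.34), whereas Ang 1438936_s_at was the lowest (3.26). A/J ovalbumin replicate 1, the other array with liver transcripts, had the lowest Rnase4 (10.65) and the highest Ang 1450717_at (5.73) of its group. There Ang 1438936_s_at was the lowest of the group (3.36) and 1438937_x_at lay in the middle (3.67). Without the 2 arrays, A/J resiquimod against PBS was called for Rnase4 (-0.29, adjusted p = 0.0308, limma) and for Ang 1450717_at (-0.43, adjusted p = 0.00197, limma), which were not called with all arrays (-0.22 and -0.25). Neither was called in either strain for resiquimod against ovalbumin with all arrays, at 0.07 and 0.20 in A/J and -0.24 and -0.21 in C57BL/6. Without the liver arrays Rnase4 was called in C57BL/6 (-0.24, adjusted p = 0.0387, limma).

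Other Ang calls were gained without the liver arrays. Ang 1438936_s_at was called in A/J for resiquimod against ovalbumin (0.67, adjusted p = 0.0138, limma; 0.41 with all arrays) and against PBS (0.66, adjusted p = 0.00509, limma). In C57BL/6, for resiquimod against PBS, Ang 1450717_at was called (-0.33, adjusted p = 0.00383, limma), as was 1438936_s_at (-0.38, adjusted p = 0.0467, limma). The C57BL/6 changes were the same with all arrays, since neither array left out is of that strain. How far liver RNA contributes was not tested.

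**Figure D5:**
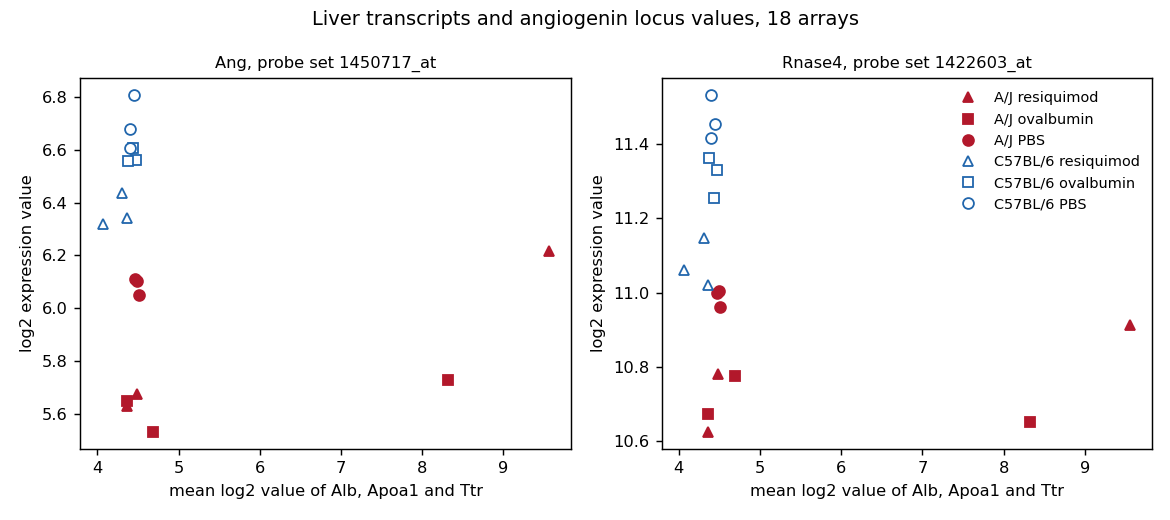
log2 expression values of Ang 1450717_at (left) and Rnase4 (right) against the mean log2 value of Alb, Apoa1 and Ttr on 18 arrays; filled symbols are A/J and open ones C57BL/6. The 2 arrays at the right, A/J resiquimod replicate 3 and A/J ovalbumin replicate 1, have Alb values of 11.33 and 10.06, and the first has the highest A/J value of Ang 1450717_at, 6.22.

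In C57BL/6, the mean levels of Rnase4, Ang 1450717_at and Ang 1438936_s_at were ordered the same way, with PBS above ovalbumin above resiquimod and no overlap between neighbours. Ang 1438937_x_at did not share this order, with ovalbumin (8.232) and PBS (8.225) overlapping and both above resiquimod (7.97). By likeness over the 18 arrays, Slco3a1 (0.955) was nearest to Rnase4. Rpgrip1 (0.994) was nearest to Ang by its strongest probe set, 1438936_s_at, and Trim34a (0.994) and Rps6 (0.992) were next, over arrays that fall into 2 strains. For Ang 1450717_at, chosen for this after its values were seen, Ccl27a (0.944) was nearest.

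The rest of the family was measured for 8 of 21 other listed genes, by 9 probe sets. Rnase1, Rnase2b, Rnase10, Ang2, Ang3 and Ang4 lay between 2.63 and 4.33 on all arrays, near the weakest values. Rnase6, a ribonuclease of myeloid cells, measured 5.36, 5.45 and 5.41 after resiquimod, against 4.64, 4.60 and 4.68 after ovalbumin and 4.59, 4.70 and 4.78 after PBS in C57BL/6. The change against ovalbumin was 0.77 ± 0.14 (adjusted p = 0.00161, limma) and against PBS 0.72 ± 0.14 (adjusted p = 0.00165, limma). In A/J the same changes were -0.08 and -0.03, not called. Rnase6 lay at 3.90 to 4.52 over the A/J arrays, below every C57BL/6 array (4.59 to 5.45) and nearer the 25th percentile of all values (3.33). A weaker signal of this probe set in A/J cannot be told apart from a missing response.

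Ear3, an eosinophil-associated ribonuclease measured by a probe set that may bind its relatives, rose after ovalbumin in A/J by 0.47 ± 0.12 (adjusted p = 0.0473, limma), and in A/J resiquimod mice it fell to 8.03, 7.58 and 8.03, against 8.37, 8.27 and 8.39 after ovalbumin (adjusted p = 0.0314, limma). In C57BL/6, Ear3 measured 8.33, 7.96 and 8.10 after resiquimod, against 7.88, 8.02 and 7.82 after ovalbumin and 7.602, 7.906 and 7.547 after PBS. Its change there was 0.45 ± 0.12 for resiquimod against PBS (adjusted p = 0.0243, limma) and 0.22 against ovalbumin, not called, and the strain difference in the resiquimod effect was -0.68 ± 0.17, not called (adjusted p = 0.0814, limma). The first A/J call was lost in 12 of 18 fits leaving out 1 array and the second in 4 (each A/J ovalbumin array and A/J resiquimod replicate 2), and the C57BL/6 call in 4 (C57BL/6 PBS replicates 1 and 3, C57BL/6 resiquimod replicates 1 and 3). None of the 3 was called without the squamous arrays. Of the partners, Rnh1, the cytoplasmic ribonuclease inhibitor, was higher in A/J resiquimod than in A/J PBS lungs by 0.27 ± 0.07 (adjusted p = 0.0198, limma). Without any of the A/J PBS arrays or A/J resiquimod replicates 1 or 2 this was no longer called. Plxnb2, reported as a receptor for angiogenin, was called in no comparison, with changes from -0.08 to 0.11 and all adjusted p at least 0.472 in limma.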

How the data were processed

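Total RNA of whole lungs was hybridised to 18 one-colour arrays. RMA and affy, with no version, are the tools named in the submitters' processing notes, and the deposited values lie on the log2 scale (2.00 to 14.03). The 64 control probe sets were left out. Probe sets were named from the platform annotation; only those with 1 gene symbol were used. RMA values borrow strength across arrays, and 3 arrays a group limit the precision.

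Samples were grouped by strain and treatment from the labels. In R 4.3.3, limma 3.58.1 fitted 6 group means to 45037 probe sets (12 residual degrees of freedom, eBayes, Benjamini-Hochberg over all probe sets, threshold 0.05), for 11 comparisons. The exact permutation test planned for Ang probe set pairs is not reported, since their strain difference was known when it was chosen. The genes to name were the members, then the other listed family genes and partners, with likeness ranked by Pearson correlation over 18 arrays and 5 genes kept; values of a gene come from its probe set of highest mean. The script was tested on simulated data. The members and lists were chosen with earlier results of these data known. Alternatives were fits of the groups compared only, with a replicate block, without weak probe sets, with median centring, with a trended robust prior, without arrays with squamous transcripts, without arrays with liver transcripts (chosen after seeing the data), and leaving out each array. Arrays sharing a replicate number had deviation correlations from -0.58 to 0.50, with 15 of 27 above 0.1; only A/J resiquimod against PBS had every pair above 0.1. Separate animals are stated as biological replicates, but whether a number marks a shared batch is not given in the sources used here. Sequences come from RefSeq tables of build GRCm38.p6.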

Additional observations from a re-analysis of the deposited data

Results flagged for a closer look

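The strain difference in the resiquimod effect of Rnase6 was -0.85 ± 0.19 (adjusted p = 0.0482, limma), because resiquimod changed it by 0.77 in C57BL/6 and by -0.08 in A/J relative to ovalbumin, a difference tested as an interaction. It was no longer called in 15 of 18 fits that left out 1 array, all but those without A/J ovalbumin replicate 2 or A/J resiquimod replicate 1 or 2. Over the 18 it ranged from -1.001 to -0.69. With a replicate block it was not called either (adjusted p = 0.0604, limma), nor without the squamous arrays (-0.62) or the liver arrays (-0.58). The Rnase6 probe set read 3.90 to 4.52 in A/J and 4.59 to 5.45 in C57BL/6, so a weaker A/J signal cannot be told apart from a missing response. No member probe set had a called interaction.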

How the results depend on the processing

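Of 1375 recomputed member changes, 1292 kept their direction and side of the threshold, 25 gained and 42 lost a call with the same direction, and 16 changed sign, all of them uncalled both with all arrays and under the alternative. Among the 16, without the squamous arrays, were Rnase2a for A/J resiquimod against PBS (-0.15, against 0.25 with all arrays), Ang 1438936_s_at for A/J ovalbumin against PBS (0.17, against -0.12) and A/J resiquimod against ovalbumin (-0.10, against 0.41). With all arrays the numbers of member probe sets called were 3 and 1 (ovalbumin against PBS in A/J and C57BL/6), 1 and 1 (resiquimod against ovalbumin), 0 and 1 (resiquimod against PBS), 4, 5 and 5 (A/J against C57BL/6 after PBS, ovalbumin and resiquimod), and 0 and 0 (the 2 interactions).

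The fit without the squamous arrays has 10 arrays left, 1 each in A/J ovalbumin and C57BL/6 PBS. Its counts, several of them lower, are not listed for that reason. Without the liver arrays the numbers called were 2 for A/J and 2 for C57BL/6 resiquimod against ovalbumin. They were 3 for A/J and 3 for C57BL/6 resiquimod against PBS. Calls were also lost without the liver arrays. These were Rnase4 for A/J ovalbumin against PBS (adjusted p = 0.0967, limma) and Rnase2a for A/J against C57BL/6 after resiquimod (adjusted p = 0.0833, limma). Smaller shifts in the counts are not all listed here. C57BL/6 resiquimod against ovalbumin gave 2 without weak probe sets and 2 with the trended robust prior, which gave 1 for A/J resiquimod against PBS. Fitting only the groups compared gave 3 for C57BL/6 resiquimod against PBS and 3 for the strain comparison after resiquimod. Leaving out 1 array gave 1 to 3, 1 to 1, 1 to 2, 1 to 2, 0 to 3, 1 to 2, 4 to 5, 5 to 5, 4 to 5, 0 to 0 and 0 to 1 in the order above. Leaving out A/J resiquimod replicate 2 or 3 moved most of the resiquimod counts. The cause was not tested.

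With the replicate block, 0 of 55 member calls changed (3 probe sets called for A/J ovalbumin against PBS, 0 for A/J resiquimod against PBS). Each Ang probe set pair kept its direction in single treatments. For 1438936_s_at minus 1438937_x_at the strain difference was -1.88 after resiquimod, -1.44 after ovalbumin and -1.77 after PBS. For 1438936_s_at minus 1450717_at it was -4.69, -4.88 and -5.27, and for 1438937_x_at minus 1450717_at -2.80, -3.44 and -3.50. Leaving out 1 array gave -1.81 to -1.49, -5.08 to -4.84 and -3.37 to -3.19.

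Over all alternatives the number of probe sets called on the whole array ranged from 120 to 1867 and 141 to 630 (ovalbumin against PBS, A/J and C57BL/6), 574 to 3658 and 1398 to 3999 (resiquimod against ovalbumin), 1492 to 4073 and 1362 to 6039 (resiquimod against PBS), 1442 to 4091, 1347 to 4213 and 4029 to 6604 (strain comparisons), and 3 to 36 and 6 to 730 (interactions).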
